A study of Homo sapiens with 3 samples.

Results

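The cells described here are the day 1 cells of a human pluripotent stem cell culture that were highest in a set of 5 genes, ANXA1, ADM, SPP1, UPP1 and EMP3. For each cell the raw unique molecular identifiers (UMIs, 1 per captured RNA molecule) of the 5 genes were summed and divided by the UMIs of all its genes, and the cells were ranked by this score. The ranking was cut into 3 groups of nearly equal size. The high group held 1225 of 3677 cells and is the subject here, the low group held 1225 and the middle group 1227. The whole series held 18830 cells that passed the same filters. The values that chose the cells are those of the 5 genes, so their levels in these groups are a description and support nothing by themselves.

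The study profiled UCLA1, a human embryonic stem cell line in established use, cell by cell in a culture named GiMO, after 1, 2 and 3 days. All 3 days shared the line, the culture, a Geltrex overlay, which is an extract of basement membrane, and a trypsin dissociation, and the title of the series concerns a response to BMP4 whose timing the labels do not state. Each day was 1 library on the 10x Genomics platform, so day and library cannot be told apart, and the cells of a library are not replicates. No p-value is given, and every interval below is a 95% interval that covers counting error only.

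The products of the 5 genes do different work. ANXA1 is an annexin, a protein that binds membrane phospholipids when calcium is present and that is known for its anti-inflammatory action outside the cell. ADM encodes adrenomedullin, a secreted peptide that acts through the receptor CALCRL paired with a RAMP protein. SPP1 encodes osteopontin, a secreted glycoprotein that binds integrins and CD44. UPP1 is uridine phosphorylase, which splits uridine into uracil and ribose phosphate. EMP3 is a membrane protein of the PMP22 family. In human pluripotent cells POU5F1, SOX2 and NANOG hold the undifferentiated state, while MIXL1, TBXT and EOMES mark entry into the primitive streak and NODAL is restrained by its antagonists LEFTY1, LEFTY2 and CER1.

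The start regions of the 5 genes are shown because the 5 transcripts were high in the same cells. In GENCODE 44 on hg38 these protein-coding genes lie at chr9:73151865-73170393 (ANXA1), chr11:10305073-10307397 (ADM), chr4:87975667-87983532 (SPP1), chr7:48088628-48108736 (UPP1) and chr19:48321509-48330553 (EMP3), all on the plus strand. Each line below gives 250 bases before and 50 after the RefSeq start (GRCh38.p14, 5′ to 3′ on the gene's strand), and capitals mark TATAAA on either strand, the TATA box letters.
ANXA1, chr9:73151615-73151914 (+): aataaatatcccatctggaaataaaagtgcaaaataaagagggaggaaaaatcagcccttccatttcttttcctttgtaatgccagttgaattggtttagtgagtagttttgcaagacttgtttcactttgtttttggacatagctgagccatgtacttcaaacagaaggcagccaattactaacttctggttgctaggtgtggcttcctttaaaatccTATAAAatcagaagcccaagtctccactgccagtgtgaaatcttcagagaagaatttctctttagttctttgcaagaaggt
ADM, chr11:10304823-10305122 (+): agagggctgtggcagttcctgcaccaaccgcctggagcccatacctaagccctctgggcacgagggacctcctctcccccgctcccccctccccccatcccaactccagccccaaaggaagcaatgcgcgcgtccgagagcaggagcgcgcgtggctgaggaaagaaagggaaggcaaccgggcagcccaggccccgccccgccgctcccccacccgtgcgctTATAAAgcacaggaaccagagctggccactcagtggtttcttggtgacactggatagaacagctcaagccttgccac
SPP1, chr4:87975464-87975763 (+): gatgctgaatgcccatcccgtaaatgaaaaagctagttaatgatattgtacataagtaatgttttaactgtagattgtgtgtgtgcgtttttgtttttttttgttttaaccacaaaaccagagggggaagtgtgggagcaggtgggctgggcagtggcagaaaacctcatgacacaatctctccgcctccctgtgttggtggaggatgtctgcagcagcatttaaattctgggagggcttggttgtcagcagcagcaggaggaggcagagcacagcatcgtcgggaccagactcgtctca
UPP1, chr7:48089004-48089303 (+): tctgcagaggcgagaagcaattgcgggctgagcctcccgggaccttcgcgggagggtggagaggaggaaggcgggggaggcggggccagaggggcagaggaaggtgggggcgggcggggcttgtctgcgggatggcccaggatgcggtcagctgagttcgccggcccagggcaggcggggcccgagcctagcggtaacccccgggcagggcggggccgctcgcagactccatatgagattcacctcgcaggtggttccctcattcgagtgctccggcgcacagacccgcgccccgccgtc
EMP3, chr19:48325302-48325601 (+): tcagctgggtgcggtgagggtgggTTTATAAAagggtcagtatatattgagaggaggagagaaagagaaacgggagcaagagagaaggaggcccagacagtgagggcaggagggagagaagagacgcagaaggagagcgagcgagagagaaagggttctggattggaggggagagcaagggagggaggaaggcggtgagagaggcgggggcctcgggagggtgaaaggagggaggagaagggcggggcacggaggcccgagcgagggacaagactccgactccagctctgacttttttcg
The letters TATAAA were found in 3 of the 5 windows, in 11.95% of 27305 RefSeq windows of the same length and in 4.94% of the 7452 windows of genes tested at day 1. In ANXA1 the match began 31 bases before the start and in ADM 27 bases before it. In EMP3 a forward and a reverse match overlapped and lay far upstream, at 224 and 226 bases before the start. CATTCC (TEAD), TGANTCA (AP-1) and ACGTG (hypoxia element), each searched on both strands, were in 0 of the 5 windows. A match is a description of letters and not of a bound factor.

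The score varied without a gap between high and low cells. Its median was 1428 per 1000000 UMIs in the high group, 770 in the middle and 359 in the low group, and the highest cell reached 7121. The lowest cell of the high group scored 1007.77 and the next cell below it 1007.21, and 438 cells (11.9%) lay within 10% of that limit. At the lower limit the values just inside and just outside were 560.454 and 560.461, with 345 cells (9.38%) within 10%. Both limits were set by the number of cells, so the high group is a range of the score, and these values do not bear on whether it holds a cell type of its own. The groups also differed in depth, with median UMIs per cell of 44130, 46114 and 36550 from high to low. When day 1 cells were split by depth into 5 bins, members made up 26.4% of the shallowest bin and 34.1% to 36.2% of the others.

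UMIs were next summed over the cells of each group and given as counts per 1000000 (CPM). ANXA1 stood at 241 CPM in the high, 83.6 in the middle and 26.6 in the low group, a ratio of high over low of 9.06. SPP1 was at 558, 237 and 92.2 CPM, a ratio of 6.05. UPP1 was at 500, 249 and 119 CPM, a ratio of 4.21. As the sum of these genes made the groups, ratios above 1 were fixed by the choice. EMP3 was at 157, 106 and 57.4 CPM (ratio 2.73) and ADM at 138, 97.9 and 65.8 CPM (ratio 2.09), and these 2 genes separated the groups least. The middle group lay between the others for each gene.

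**Figure D1:**
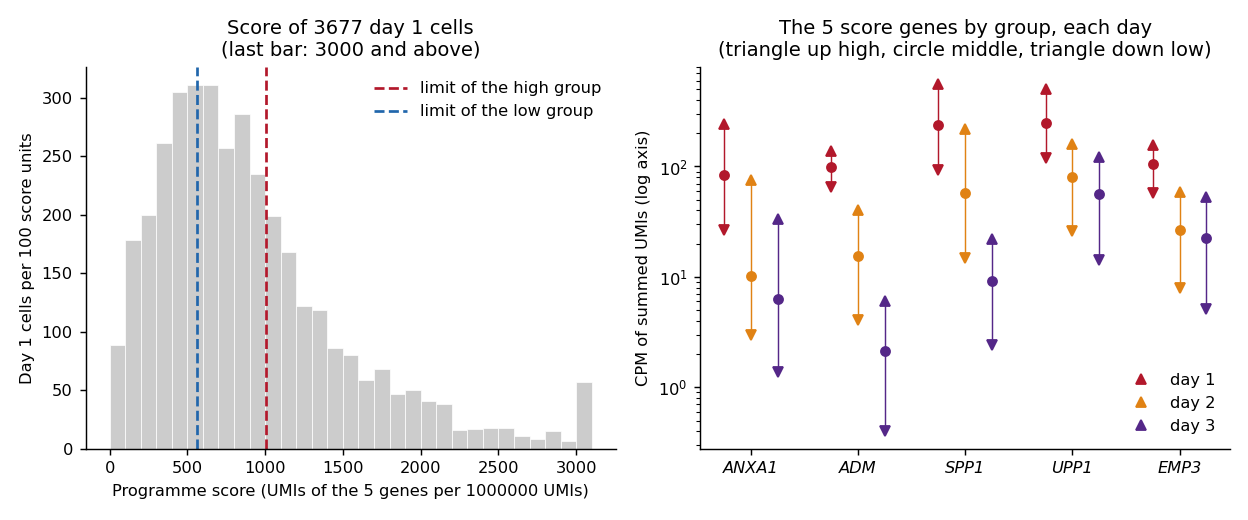
Left, the number of day 1 cells (vertical axis) by programme score per 1000000 UMIs (horizontal axis), with dashed lines at the limits of the low and high group. Right, CPM on a log axis of the 5 genes in the high, middle and low group drawn within each day; scores run without a gap through both limits, and ANXA1 at day 1 spans 26.6 to 241 CPM.

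Members differed in which of the 5 genes led. SPP1 had the most UMIs of the 5 in 707 members (57.7%) and UPP1 in 440 (35.9%), whereas ANXA1 led in 55, ADM in 16 and EMP3 in 7. These counts are not adjusted for transcript length. When day 1 cells were ranked for each gene alone, 201 members were in the high group for all 5 genes, 358 for 4, 408 for 3, 225 for 2 and 33 for a single gene. Over all day 1 cells these counts were 201, 363, 492, 639 and 914, and 1068 cells were in it for no gene. As the sum of the same 5 genes chose the members, this overlap follows in part from the choice. No ANXA1 UMI was seen in 29 members and in 614 cells of the low group, whose depth was lower. Beyond counting error the cell-to-cell coefficient of variation over all day 1 cells was 105% for ANXA1, 82.6% for SPP1, 76.6% for UPP1, 52.8% for EMP3 and 49.4% for ADM.

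Leaving each gene out of the score gave a measure that did not use the gene. The cells were ranked by the other 4 genes, and the left-out gene was compared between the new groups. ANXA1 was 6.18-fold higher in the high group (interval 5.89 to 6.49), SPP1 3.51-fold (3.42 to 3.60) and UPP1 3.08-fold (3.01 to 3.16). EMP3 was 2.25-fold (2.17 to 2.35) and ADM 1.70-fold higher (1.63 to 1.76). Each of the 5 was higher where the other 4 were high, with a median log2 ratio of 1.62, and 85.1% to 95.02% of the members stayed in the high group. The set of 5 was itself chosen with earlier results of these data known, so these ratios describe the set and are no independent support for it. All 5 genes share the library and the total UMIs of a cell in this measure. Across the 3677 day 1 cells, Pearson's r of log normalised counts was 0.64 for ANXA1 with SPP1, 0.60 for ANXA1 with UPP1 and 0.57 for SPP1 with UPP1. It was 0.24 to 0.34 for the 4 pairs with ADM. Within the high group the pairs had r from -0.08 to 0.32, a range narrowed by the choice of cells.

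The same left-out ratios were closer to 1 at day 3. At day 2, in groups of that library's own cells, ANXA1 was 6.71-fold higher, SPP1 3.16-fold, ADM 2.52-fold, EMP3 2.25-fold and UPP1 1.94-fold, and the median log2 ratio was 1.34. At day 3 ANXA1 was 1.75-fold, SPP1 1.51-fold and EMP3 1.25-fold higher. The interval for ADM at day 3 included 1 (ratio 1.22, 0.957 to 1.55), and UPP1 was slightly lower where the other 4 were high (ratio 0.916, 0.872 to 0.963). The median log2 ratio at day 3 was 0.33. Levels were also lower: the 5 genes together took 934 CPM at day 1, 283 at day 2 and 120 at day 3, so the later groups rest on few UMIs, with a median of 68 programme UMIs per member at day 1 against 7 and 4 in the high groups of days 2 and 3. After each cell was thinned to 5000 UMIs, 40.8% of day 1 cells (exact binomial interval 39.2% to 42.4%) reached a score of 1000 per 1000000 or more. The share was 4.71% (4.24% to 5.22%) at day 2 and 0.421% (0.284% to 0.600%) at day 3. These intervals cover the count of cells within 1 library and not the spread between libraries. Thinning left out 34, 484 and 129 shallower cells. Without thinning 33.3%, 2.86% and 0.0964% reached the day 1 limit.

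Over all genes, 9291 had at least 10 CPM in the higher group at day 1, with the 5 score genes left out. Past a ratio of 1.3 in either direction, 382 genes (4.11%) were higher in the high group and 2632 (28.3%) lower, and the middle group lay between the others for 379 and 2616 of them. Past 1.5-fold the counts were 177 (1.91%) and 879 (9.46%), and past 1.3-fold with a minimum of 2 CPM they were 654 (4.78%) and 4333 (31.7%). The median log2 ratio was -0.19, so most genes were slightly lower in CPM in the high group. Scaling by TMM, which sets a trimmed and weighted mean of the log2 ratios to 0, raised every log2 ratio by 0.26. The median of all genes became 0.07, and the split turned into 1679 higher and 657 lower. Directions below are therefore read against the median of all genes as well as against 0. As TMM shifts all genes alike, a change of sign under it does not alter a list's position against that median. Since the cells were chosen on these libraries and every gene comes from the same cells, the counts describe the groups and test nothing.

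The 5 highest ratios were those of CER1, FOXD1, SFTA1P, LEFTY2 and VIM, of which CER1 and LEFTY2 encode NODAL antagonists. CER1 was at 22.3 CPM in the high, 5.97 in the middle and 1.98 in the low group, 11.3-fold higher (interval 9.22 to 13.9). It is also a definitive endoderm marker, and the other markers of that class were scarce. SOX17 was at 0.150 CPM in the high and 0.330 in the low group, HHEX at 0.350 and 0.872, and FOXA2 at 0 and 0.097. CXCR4 went the other way, at 0.700 and 0.349 CPM. LEFTY2 was at 88.5, 38.4 and 15.03 CPM, 5.89-fold higher (5.46 to 6.36), and LEFTY1, a close copy with which it may share reads, at 109, 68.5 and 41.1 CPM. These antagonists thus followed the score, whereas NODAL itself was at 65.1, 73.2 and 55.4 CPM and had its highest level in the middle group. Of the NODAL response 3 of 7 genes were higher, these antagonists, and 2 lower, EOMES and FOXH1; under TMM 4 were higher and 0 lower. VIM, the intermediate filament vimentin, was at 961, 433 and 164 CPM, 5.86-fold higher (5.73 to 5.99). FOXD1, a forkhead transcription factor, was at 12.5, 2.81 and 1.18 CPM, and the long noncoding RNA SFTA1P at 45.6, 13.4 and 4.38 CPM. These 2 were 10.5-fold and 10.4-fold higher.

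Among the rest of the 25 highest genes were 3 of caveolae, the small pits of the plasma membrane. The coat proteins CAV1 (317, 196 and 85.5 CPM, ratio 3.71) and CAV2 (21.2, 10.6 and 6.36 CPM, ratio 3.34) were joined by the adaptor CAVIN3 (154, 93.8 and 48.3 CPM, ratio 3.20). Secreted proteins among them were the chemokine CXCL14 (ratio 4.68), the peptide hormone precursor CCK (3.31), the stress cytokine GDF15 (3.17), the growth factor FGF1 (2.75) and the collagen COL8A1 (3.59). Cytoskeletal and membrane genes were TAGLN2 (391, 248 and 130 CPM, ratio 3.00), the filamin FLNC (2.98), the protease CAPN2 (3.18), MYOF (2.79), PLP2 (2.80), LY6K (4.98) and LYPD1 (2.92). FOSL1, a subunit of the transcription factor AP-1, was 3.21-fold, the oxidase NOX4 3.01-fold, PHLDA2 2.97-fold and TRBC2, a T cell receptor constant segment with a near-identical copy that may share its reads, 2.79-fold higher. Of the 25, 16 had a RefSeq window. TGANTCA was in 5 of these (31.3%), those of CXCL14, CAPN2, TAGLN2, LYPD1 and PLP2, against 7.76% of all windows and 3.97% of those of tested genes. ACGTG was in 6 of 16 (37.5%, against 21.6% and 28.0%), CATTCC in 4 (25%, against 14.05% and 10.4%) and TATAAA in 1 (6.25%). Of the 15 genes with the lowest ratios, described next, 8 had a window. ACGTG was in 3 of these 8, the same 37.5%. TGANTCA and CATTCC were in 1 each (12.5%) and TATAAA in 0.

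The 15 lowest genes were at 0.265 to 0.381 of the level in the low group. MIXL1, a transcription factor of the primitive streak, was at 6.32 CPM in the high, 18.9 in the middle and 20.8 in the low group (ratio 0.304). The kinase PRKD1 was at 32.1, 53.8 and 97.4 CPM (ratio 0.329). Also among the 15 were SULF1, ASIC2, ADAMTS6, RALYL, CTNNA2, GABRA3, RGS7, DMD, NEFM, ADAMTS3 and the noncoding LINC01505 and AL157944.1. Most of these genes are very long: the median span in GENCODE was 615 kb for the 15 lowest, 9.35 kb for the 25 highest and 41.0 kb for all genes tested. MIXL1 (3.44 kb) and NEFM (5.34 kb) were the exceptions under 10 kb.

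Gene span moved with the ratio over all genes. The median log2 ratio at day 1 was 0.10 for genes under 10 kb and -0.50 for those over 200 kb, and 4.92% of the former and 67.5% of the latter were lower in the high group. Cells with under 10% ribosomal protein UMIs made up 0.490% of the high, 1.39% of the middle and 10.6% of the low group. Without these cells the medians were 0.06 and -0.35, the lower genes over 200 kb 46.2% and all lower genes 1726. At day 2 the medians ran from 0.15 to -0.40 and at day 3 from 0.07 to -0.15. The ratios of the long genes thus moved with span and with the share of low-ribosomal cells in the low group, and the part of either in the result was not tested. The median mitochondrial share was 4.07%, 4.42% and 4.77% from high to low.

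**Figure D2:**
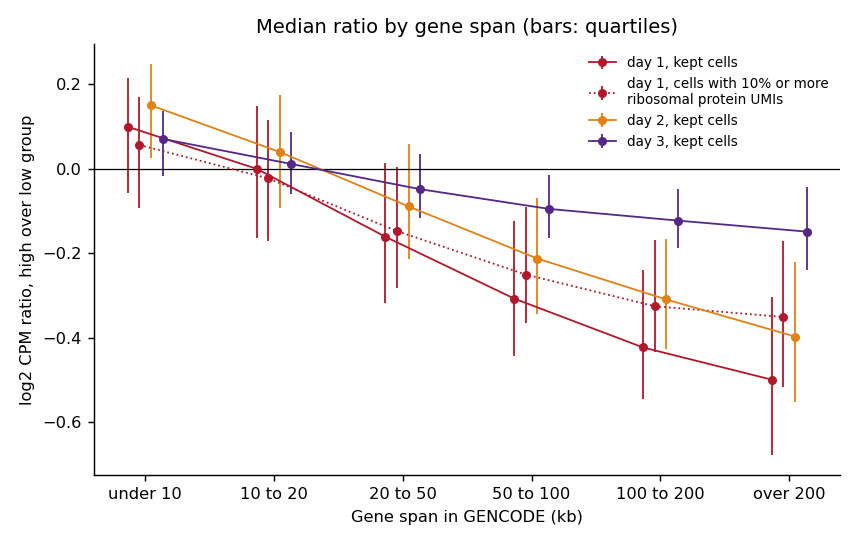
Median log2 CPM ratio of high over low group (vertical axis) by gene span in kb (horizontal axis) for each day, with bars from the lower to the upper quartile of genes and a dotted line for day 1 without low-ribosomal cells. Medians at day 1 run from 0.10 under 10 kb to -0.50 over 200 kb; TMM scaling would raise every day 1 point by 0.26.

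Gene lists were read by the number of members past 1.3-fold, of those with at least 10 CPM, beside 4.11% higher and 28.3% lower over all genes. Those shares are over genes of all spans, and the lists were not matched for span. As given above, 4.92% of genes under 10 kb and 67.5% of genes over 200 kb were lower. Under TMM, which multiplies each ratio by 1.19, many calls of lower genes are lost, and these counts are given where they differ by more than 1.5 times. Annexins and their S100 partners had 10 of 13 members higher and 0 lower, with a median log2 ratio of 0.66. ANXA2 was at 820, 552 and 368 CPM from high to low (ratio 2.23) and its partner S100A10 at 1208, 858 and 470 CPM (ratio 2.57). ANXA3 (ratio 2.72), S100A6 (2.58), S100A11 (1.71) and ANXA5 (1.43) were also higher, whereas ANXA7 (1.02), ANXA11 (1.20) and S100A4 (1.17) were within 1.3-fold. All 13 lay above the median of all genes. The caveolae list had 4 of 5 higher (median 1.68), the fourth being CAVIN1 (ratio 2.29), while the membrane-bending protein PACSIN2 was at 0.815.

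Cytoskeletal genes were higher in part. Intermediate filaments had 5 of 7 higher and 0 lower (median 0.51): VIM as above, the nuclear lamin LMNA (ratio 1.97), nestin NES (1.63) and the keratins KRT8 and KRT18 (each 1.42). Of the actin and SRF targets 6 of 15 were higher and 0 lower (median 0.28), and under TMM 12 were higher. TAGLN, an actin-binding protein, was at 766, 512 and 323 CPM (ratio 2.37), the myosin light chain MYL9 at 217, 166 and 113 CPM (1.92) and tropomyosin TPM1 at 1333, 1029 and 785 CPM (1.70). ACTB was at a ratio of 1.24 and ACTG1 at 1.21. Genes classed as YAP-TEAD targets had 2 of 11 higher, the receptor AXL (2.20) and FJX1 (1.49), and 2 lower, the kinases LATS1 (0.648) and LATS2 (0.676); their median of -0.03 changed sign under TMM, with 5 higher and 0 lower.

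**Figure D3:**
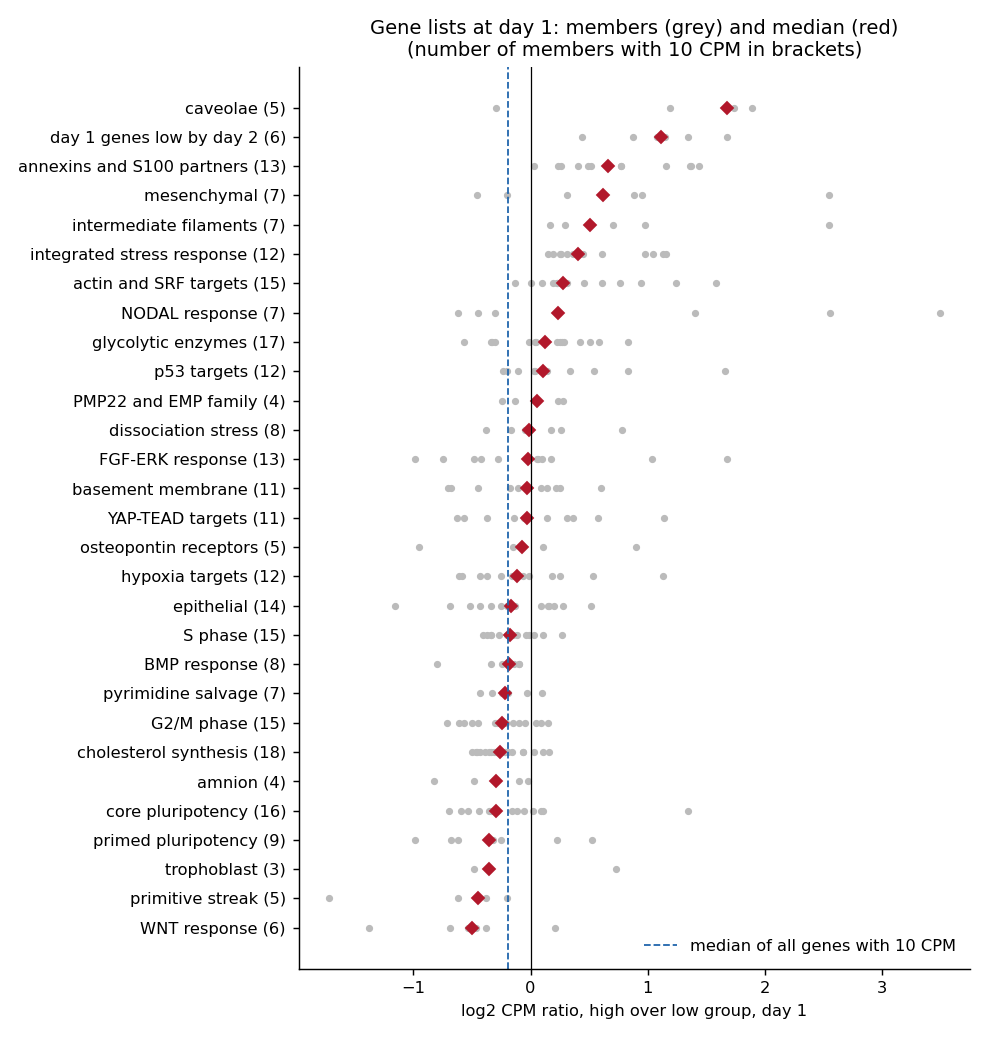
Log2 CPM ratio of high over low group at day 1 (horizontal axis) for each gene list with 3 or more members at 10 CPM (vertical axis, number of members in brackets), with grey points for genes, red diamonds for list medians and a dashed line at the median of all genes, -0.19. Caveolae (1.68) and annexins (0.66) lie to the right. Under TMM the median of all genes changes sign. So do the medians of the BMP, FGF-ERK, YAP-TEAD, hypoxia, dissociation stress, S phase and G2/M phase lists. The epithelial, basement membrane, osteopontin receptor and pyrimidine salvage medians change sign as well.

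Genes of the epithelial-to-mesenchymal transition did not move as a block. N-cadherin CDH2 was at 108, 81.6 and 58.4 CPM from high to low (ratio 1.84) and E-cadherin CDH1 at 61.2, 71.3 and 77.1 CPM (ratio 0.793). The epithelial transcription factor GRHL2 was at 43.7, 67.5 and 97.6 CPM (ratio 0.448), and OVOL2 (0.621) and the splicing factor ESRP1 (0.742) were also lower. EPCAM (1.07), CLDN6 (1.21) and OCLN (1.15) lay within 1.3-fold. Of the 14 epithelial genes, 1 was higher and 4 were lower, near the share of 28.3% lower over all genes. Their median of -0.17 changed sign under TMM, with 5 higher and GRHL2 and OVOL2 still lower. Of the mesenchymal list, 4 of 7 were higher, VIM, CDH2, COL1A1 (93.9, 78.2 and 48.5 CPM) and COL1A2, and fibronectin FN1 was lower (0.729, not past 1.3-fold under TMM). The transcription factors of the transition were scarce: SNAI1 was at 1.87 CPM in the high and 1.86 in the low group, ZEB1 at 2.25 and 1.45, and SNAI2 at 0.117 and 0.155. As COL1A1 and COL1A2 are also fibroblast markers, the other markers of that class were read: LUM had 0 UMIs in every group, COL3A1 and DCN had 0 in the low group and were at 0.05 and 0.0167 CPM in the high group. POSTN was at 2.77 CPM in the high and 2.93 in the low group (ratio 0.945) and PDGFRB at 3.23 and 4.44 CPM (ratio 0.728, 0.598 to 0.886). The 7 markers summed to 126, 107 and 73.0 CPM.

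The core pluripotency factors differed little between the groups. From high to low, POU5F1, whose pseudogenes may share its reads, was at 1184, 1170 and 1169 CPM (ratio 1.01). The levels were 192, 183 and 181 CPM for SOX2 (1.06), and for NANOG 56.9, 62.5 and 59.3 CPM (0.960). Of 16 core pluripotency genes 1 was higher and 4 were lower, near the share of 28.3% lower over all genes. UTF1, a chromatin factor of undifferentiated cells, was at 124, 89.6 and 48.9 CPM (ratio 2.54), whereas the de novo DNA methyltransferase DNMT3B (208, 270 and 338 CPM, ratio 0.615), TERF1 (0.663), L1TD1 (0.689) and LIN28B (0.739) were lower. Under TMM only DNMT3B of these stayed lower. Of 9 primed genes 1 was higher and 3 were lower, again near that share: DUSP6 (0.505), SFRP2 (0.623) and SALL2 (0.650). Under TMM 2 were higher and 2 lower, with SALL2 no longer among them. Summed over 7 pluripotent markers, the median cell held 2149, 2251 and 2324 CPM, and neural markers were near 0, with SOX1 at 0 UMIs.

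Primitive streak and WNT genes were lower in the high group. TBXT was at 1.95, 5.57 and 7.27 CPM, under the minimum of 10 CPM, and EOMES at 14.9, 26.5 and 22.9 CPM (ratio 0.650). Together with MIXL1, SP5 (0.767) and FOXH1 (0.734), 4 of 5 streak genes with 10 CPM were lower and 0 higher, with a median of -0.45. Under TMM the median was -0.19 and MIXL1 alone stayed lower. Of the WNT response 5 of 6 were lower, LEF1 at 5.42, 10.2 and 14.1 CPM (ratio 0.384), NKD1 (0.622), TCF7 (0.691), ZNRF3 (0.724) and SP5, while CCND1 was at 1.16. Under TMM the median moved from -0.50 to -0.24, LEF1 and NKD1 stayed lower and CCND1 passed 1.3-fold higher. The 6 streak markers summed to 28.6, 60.2 and 61.0 CPM, at depths that differ as given above. Of 4 amnion genes with 10 CPM, 0 were higher and 2 lower, TFAP2A at 9.63, 13.1 and 17.1 CPM (0.563) and GATA3 at 19.02, 22 and 26.6 CPM (0.715, not past 1.3-fold under TMM). The other two, HPGD (0.985) and BAMBI (0.935), lay within 1.3-fold, and the remaining 9 of the 13 on the list were under 10 CPM. BMP target genes had 0 of 8 higher and 1 lower, SMAD6 (0.577), with ID1 at 696, 740 and 790 CPM. Their median of -0.19 was that of all genes and changed sign under TMM.

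The day 1 cells were also split by score into 10 bins of nearly equal size. Bin 1 differed in quality, with 99 low-ribosomal cells among its 368 and the lowest median depth, 28902.5 UMIs per cell. Bin 2 held 17 low-ribosomal cells, and bin 10 held 1, at a median of 42091 UMIs. VIM ran from 59.8 CPM in the lowest bin to 1404 in the highest, and CER1 from 1.3 to 41.7. POU5F1 stayed between 1106 and 1219 CPM. MIXL1 was at 24.8 CPM in bin 1, at 25.4 in bin 4 and at 2.3 in bin 10, and TBXT ran from 7.5 to 1.0 CPM. NODAL was at 52.4 CPM in bin 1, 78.0 in bin 7 and 53.2 in bin 10. MIXL1 and NODAL therefore did not follow the score evenly, whereas the antagonists LEFTY2 (8.2 to 105 CPM) and CER1 had their highest level in bin 10.

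**Figure D4:**
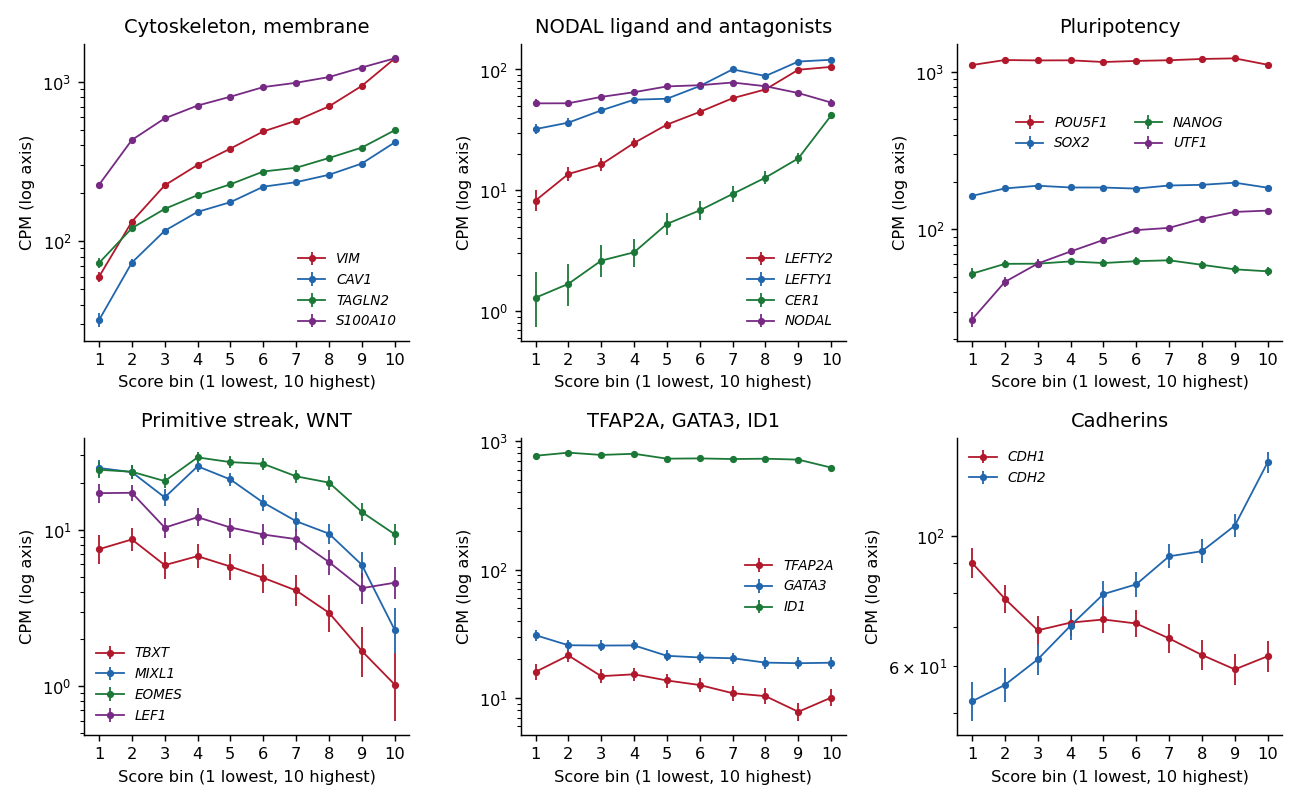
CPM of summed UMIs (vertical log axis) in 10 bins of the day 1 cells from the lowest to the highest score (horizontal axis), with bars for exact Poisson intervals. VIM and CER1 climb over the whole range, POU5F1 stays at 1106 to 1219 CPM, NODAL peaks in bin 7 and MIXL1 is lowest in bin 10. Bin 1 held 99 low-ribosomal cells among its 368 and had the lowest median depth. TMM scaling was not applied.

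The partners of the 5 genes were also measured. Of the adrenomedullin receptor, CALCRL was at 0.867 CPM in the high and 1.03 in the low group, RAMP3 at 0.1 and 0.271, and RAMP2 at 22.8, 20.2 and 17.02 CPM (ratio 1.34). The receptor's own chain CALCRL was thus near the lower end of detection in the groups cut by the 5-gene score. The osteopontin receptor CD44 was at 40.9, 31.3 and 21.9 CPM (ratio 1.87), while the integrin chains ITGAV (0.949), ITGB1 (1.08) and ITGB5 (0.899) lay within 1.3-fold and ITGA9 was at 0.518. Of pyrimidine salvage, 0 of 7 genes were higher, and UCK2, which phosphorylates uridine and so competes with UPP1 for it, was at 68.9, 80.9 and 93.1 CPM (0.740, not past 1.3-fold under TMM). EMP2, a relative of EMP3, was at 0.846. The annexin receptors FPR1 and FPR2 were at or below 0.116 CPM in both groups.

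Stress and metabolism lists were mixed. The integrated stress response had 6 of 12 members higher and 0 lower (median 0.41), and all 12 higher under TMM. Among the 6 were DDIT3 (18.5, 10.6 and 8.28 CPM, ratio 2.23), DDIT4 (2.19), TRIB3 (2.06) and the amino acid transporter chain SLC3A2 (724, 584 and 475 CPM, 1.52), while ATF4 RNA was at 1.11. Of 12 hypoxia targets 2 were higher, DDIT4 and BNIP3 (1.45), and 3 lower, EGLN3 (0.655), PDK1 (0.666) and KDM3A (0.742); their median of -0.11 changed sign under TMM, with 4 higher and 0 lower. ADM is itself known as a hypoxia-responsive gene. Glycolytic enzymes had 4 of 17 higher, ENO2 (1.78), PKM (1.502), LDHA (1.42) and TPI1 (1.34), and HK2 lower (0.675). Under TMM 9 were higher and 0 lower. Of 12 p53 targets 3 were higher, GDF15, PHLDA3 (1.78) and CDKN1A (1.46), and under TMM 5 were. Of 18 cholesterol synthesis genes 0 were higher and 5 lower, and under TMM 1 was higher and 0 lower. The dissociation stress list had JUN higher (1.72), HSPH1 lower (0.769) and a median of -0.02 that changed sign under TMM, where 3 of 8 were higher and 0 lower. Of 15 S phase genes 0 were higher and 1 lower, and of 15 G2/M phase genes 0 and 5, among them MKI67 (0.705), TOP2A (0.731) and CENPE (0.609). Both medians, -0.18 and -0.24, changed sign under TMM, where 1 gene of each list was higher and CENPE alone stayed lower. Over all genes 28.3% were lower, and the lower counts of the hypoxia, cholesterol synthesis and G2/M phase lists lay near that share.

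For each of the 5 genes the 3 most alike genes were taken by Pearson's r over the 3677 day 1 cells, among 6436 genes with at least 20 CPM. For ANXA1 they were VIM (0.70), TAGLN2 and CAV1 (0.64 each), and for SPP1 ANXA2 (0.63), VIM (0.61) and S100A10 (0.60). UPP1 was most like S100A10 (0.65), TAGLN2 (0.64) and VIM (0.61), and EMP3 like S100A10 (0.55), VIM (0.49) and TAGLN2 (0.47). VIM was among the 3 for each of the 5. For ADM the values were low, TNFRSF12A (0.31), VIM (0.30) and CAVIN3 (0.29).

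The genes named at day 1 were then read in groups drawn by the same score within the other libraries, which the choice of the day 1 cells had not used. At day 2, where 4.96% of the 14401 genes with 2 CPM were higher past 1.3-fold, 24 of the 25 highest genes kept their direction and 23 were past 1.3-fold, with a median log2 ratio of 1.05. VIM was at 351, 122 and 75.03 CPM at day 2 (4.67-fold) and 972, 793 and 673 CPM at day 3 (1.44-fold). CAV1 was at 124, 83.9 and 59.8 CPM at day 2 (2.07-fold), but at 9.25, 9.48 and 8.73 CPM at day 3 its interval included 1 (0.926 to 1.21). At day 3 VIM was thus above its day 2 level in each group and CAV1 below it. At day 3, where 3.53% of genes were higher, 21 of the 25 had 2 CPM, 20 kept their direction, 11 were past 1.3-fold and the median was 0.41. The middle group lay between the others for 22 of the 25 at day 2 and for 10 of the 21 at day 3. FOXD1 was 13.1-fold and LEFTY2 3.58-fold higher at day 2, and 2.15-fold and 2.25-fold at day 3. The groups of these days also differed in quality, in the direction seen at day 1. Low-ribosomal cells made up 5.10% of the high and 22.8% of the low group at day 2, and 1.36% and 6.36% at day 3. Without them the median log2 ratio of the highest genes was 0.99 at day 2 and 0.41 at day 3. In the low groups 1160 of 2630 cells at day 2 and 1380 of 2420 at day 3 had a score of 0.

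CER1 and CCK stood apart from the other highest genes. CER1 at day 2 was at 35.7 CPM in the high, 53.2 in the middle and 60.3 in the low group, a ratio of 0.592 (0.555 to 0.630), and at day 3 at 123, 123 and 97.4 CPM (1.26). CCK was 1.57-fold higher at day 2 and at 0.761 at day 3 (0.621 to 0.933). Of the 15 lowest genes, 14 were lower past 1.3-fold at day 2 (background 21.1%) and 4 at day 3 (background 3.8%). At day 3 DMD was higher (ratio 1.33, 1.29 to 1.37). Most of the 15 are long genes, for which the background differs. Of all genes over 200 kb with 10 CPM, 53.3% were lower at day 2 and 6.74% at day 3. MIXL1 was at 219, 400 and 474 CPM at day 2 and 295, 371 and 398 CPM at day 3, so it was lowest in the high group on each day while its level was above that of day 1. In all genes with 10 CPM, 3.26% were higher and 17.8% lower at day 2, and 1.82% and 1.61% at day 3. The annexin and S100 list had 9 of 13 members higher at day 2 (median 0.63) and 3 of 11 at day 3 (0.33).

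**Figure D5:**
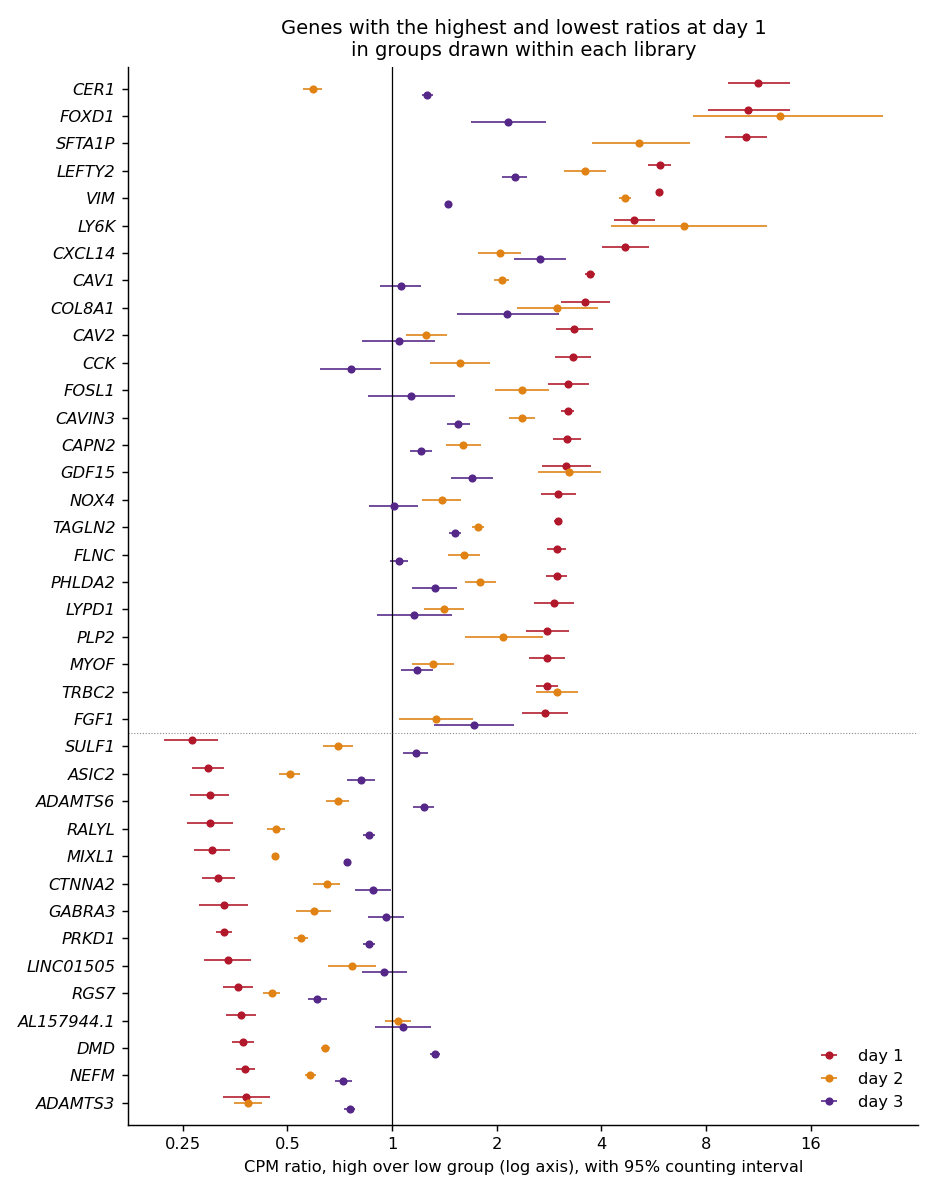
CPM ratio of high over low group (horizontal log axis, with 95% counting intervals) for genes among the 25 with the highest and the 15 with the lowest ratios at day 1 (vertical axis, parted by a dotted line), in groups drawn within each library. Points at day 2 and day 3 are shown where a group held 2 CPM; day 1 and day 2 lie on the same side of 1 except for CER1 and AL157944.1, and each day 3 point lies nearer to 1 than the day 1 point.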

How the data were processed

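Single-cell RNA was measured in 3 libraries of UCLA1 cells, 1 per day of culture, grouped by the time label. Per library the authors deposited raw UMI counts of 36601 genes, without normalisation. The submitters' processing notes name Cell Ranger 5.0.1 and hg38. Kept were barcodes with 1000 or more genes and no more than 20% mitochondrial UMIs: 3677 of 4889, 7892 of 10580 and 7261 of 7860, holding 174216674, 135839495 and 153405850 UMIs. The removed barcodes of day 1 held 151 CPM of the 5 genes, against 934 in kept cells. Kept barcodes shared between libraries numbered 5, 10 and 13.

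The members, gene lists and tests were chosen with earlier results of these data known. UMIs were summed over each score group and divided by the sum to give CPM, and a ratio has an exact conditional binomial 95% interval. No test fits 1 library per day. Named were the 5 score genes, the 25 highest and 15 lowest by ratio among genes past 1.3-fold with 10 CPM, the 3 most alike to each score gene, and members of 38 lists, with cytosolic ribosomal and mitochondrial genes read besides; a few genes under this rule are not reported here, though counts and medians include them. Doublets were kept: the automatic threshold of the Scrublet routine in scanpy 1.11.5 marked 3, 1 and 1 cells, so the caller did not work, and removing the highest-scoring 144, 668 and 457 cells was an alternative. Promoter windows are RefSeq's, spans are from GENCODE 44 on hg38, and the calculation was tested on simulated data (numpy 2.4.6, scipy 1.17.1). The RefSeq starts of SPP1, UPP1 and EMP3 differ from the outer GENCODE starts.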

Additional observations from a re-analysis of the deposited data

Results flagged for a closer look

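Of the 25 highest and 15 lowest genes, CER1, CCK and DMD are listed because each was past 1.3-fold in opposite directions on 2 days, with intervals that exclude 1; with 1 library per day the difference between days was not tested. Members of the gene lists, such as DUSP6, were not read by this rule. CER1 was 11.3-fold higher in the high group at day 1 and at a ratio of 0.592 at day 2. CCK was 3.31-fold higher at day 1 and at 0.761 at day 3, where it stood at 3.48 CPM in the high and 4.58 in the low group. DMD was at 0.373 at day 1 and 1.33 at day 3.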

How the results depend on the processing

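Each of the 40 genes named for the highest or lowest ratios kept its direction and stayed past 1.3-fold at day 1 under the 11 other ways of choosing or scaling the cells; they were picked for extreme ratios in the same cells, so this is no sign of stability. Of 31 lists with at least 3 members at 10 CPM, 19 kept the sign of their median under all 11. The 382 higher genes became 177 at 1.5-fold, 693 at 1.2-fold, 654 with a minimum of 2 CPM, 206 for 2 groups in place of 3 and 1679 with TMM. The 2632 lower genes became 879 at 1.5-fold, 4333 with 2 CPM, 1199 for 2 groups, 657 with TMM and 1726 without low-ribosomal cells, an alternative chosen after the data were seen. The left-out median of 1.62 was 1.68 with mean CPM per cell, 1.54 in depth-matched groups, 1.32 after thinning, 1.58 with at most 10% mitochondrial UMIs, 1.56 with cells chosen on one part of the UMIs and measured on the other, 1.15 for 2 groups, 1.86 with TMM and 1.56 without low-ribosomal cells. The median of the 25 highest genes was 0.77 after thinning and 0.68 for 2 groups at day 2. At day 3 it was 0.33 after thinning and 0.27 for 2 groups, ratios of 1.26 and 1.20 and so under 1.3-fold. No paired analysis was possible because each day has 1 library with no replicate number. Few UMIs limit the scores of the later days, with a median of 7 and 4 programme UMIs per cell of the high groups of days 2 and 3.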

Other observations

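Of 77 cytosolic ribosomal protein genes 0 were past 1.3-fold at day 1, with a median log2 ratio of 0.18, and of 13 mitochondrially encoded genes 6 were lower (median -0.37). The 77 ribosomal protein genes summed to 247213, 237755 and 217828 CPM from high to low. Every CPM is a share of the same total, and the median over all genes was -0.19. The 6 genes UTF1, VGF, APELA, CAVIN3, C19orf33 and IGFBP6, a list chosen on these libraries as high at day 1 and low by day 2 and so no independent evidence, were all past 1.3-fold higher in the high group at day 1, from 1.36 for APELA to 3.20 for CAVIN3, and again at day 2. DUSP6, a phosphatase that feeds back on ERK, was at 27.6, 36.9 and 54.8 CPM from high to low at day 1 (ratio 0.505), at a ratio of 1.36 at day 2 and at 1.23 at day 3. The FGF-ERK list that holds DUSP6 and FOSL1 went both ways at day 1. Of its 13 members with 10 CPM, 2 were higher and 4 lower (median -0.02), beside 4.11% and 28.3% over all genes. Under TMM 3 were higher and 2 lower. BMP4, named after its values were seen, was at 23.4, 16.3 and 13.3 CPM at day 1 (ratio 1.75, 1.60 to 1.92) and at a ratio of 1.21 at day 2 and 1.04 at day 3, when it stood at 394, 398 and 380 CPM. TFAP2C, a factor of germ cells and trophoblast, was at 18.4, 13.2 and 11.1 CPM at day 1 (ratio 1.66), while the other germ cell markers NANOS3, PRDM1 and KIT stayed under 3 CPM.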
